A study of Homo sapiens with 6 samples.

Results

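The teneurins, the latrophilins and the FLRT proteins are cell surface molecules that bind one another across cell contacts, and 10 of their genes were followed here in HCT116 cells sorted by CD133. HCT116 is an established human colorectal carcinoma line, and CD133 is a surface glycoprotein, encoded by PROM1, widely used as a marker of tumour-initiating cells. There were 3 arrays of CD133+ HCT116 cells and 3 of CD133- HCT116 cells, 6 in all, both sorted from the same line without any further treatment named in the labels, and numbered as repetitions 1, 2 and 3 in each fraction. The genes were taken by name, being the 4 teneurins (TENM1 to TENM4), the 3 latrophilins (ADGRL1 to ADGRL3) and the 3 FLRT genes (FLRT1 to FLRT3), out of 18404 genes measured. Each of the 10 had 1 probe set that carried its symbol alone, so all were measured and none was filtered out. Probe sets with several symbols were not searched for them. The set was chosen by the difference of TENM3 between the fractions, which was already known, and its relatives and binding partners were added by name, so that difference is described here without a test.

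Teneurins are large single-pass membrane proteins with a long extracellular C-terminal part, and they bind the latrophilins, which are adhesion G protein-coupled receptors named for the spider toxin latrotoxin. FLRT proteins carry leucine-rich repeats and a fibronectin type III domain, and they bind latrophilins at a different site as well as the UNC5 netrin receptors. The trio is best known from the nervous system, where it guides axons and helps to specify synapses.

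Values are log2 signals after Robust Multichip Average processing (RMA), and each difference is CD133+ minus CD133- on that scale. Signals of different probe sets depend on their probes, so no gene's level is compared with that of another single gene. The array median is taken over all tested probe sets. A place above or below it therefore depends on the probes too and is given only as a rough position. PROM1, the gene of the sort marker, had signals of 7.59, 7.36 and 7.09 in CD133+ cells and of 5.30, 4.46 and 3.97 in CD133- cells in repetitions 1, 2 and 3. The labelled fractions thus differed in PROM1 without overlap, in the direction of the labels. Of 8 epithelial markers, 7 lay above the array median on all 6 arrays, the exception being VIL1, a microvillus protein. KRT8 and KRT18 did not overlap between the fractions, with CD133+ lower (differences -0.24 and -0.48), as for 4.52% of all genes. CLDN7 did not overlap either, with CD133+ higher (difference 0.48), as for 3.43% of all genes. The remaining epithelial markers overlapped. All 4 measured leukocyte and all 4 endothelial markers lay below the array median on all 6 arrays. Of 5 measured fibroblast markers, 3 lay below it on all 6 arrays and 1, the collagen gene COL1A1, above it on all 6. Of 5 measured neuronal markers, SYT1 and RBFOX3 lay above it on all 6 arrays and SNAP25 and GAP43 below it on all 6. Whether the repetitions were separate cultures or sorts is not stated in the labels. The p-values below therefore measure only the spread between these arrays, which may be technical.

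TENM3, teneurin-3, was the 1 gene of the 10 with a large difference between the fractions. Its signal was 4.81, 4.86 and 5.42 in CD133+ cells in repetitions 1, 2 and 3, against 6.59, 6.68 and 6.90 in CD133- cells. Every CD133+ array lay below every CD133- array, and in both fractions the array of repetition 3 was the highest. The means were 5.03 ± 0.34 in CD133+ cells and 6.73 ± 0.16 in CD133- cells (SD, n = 3 each). The log2 difference was -1.70, so the signal was 3.24-fold lower in CD133+ cells. Within repetitions 1, 2 and 3 the difference was -1.78, -1.82 and -1.49, with an SD of 0.18 over the 3. Only 3 of the 18404 genes had a more negative mean difference, and within repetitions 1, 2 and 3 TENM3 ranked 1, 6 and 6 from the most negative difference. The TENM3 signal lay below the array median on the 3 CD133+ arrays and above it on the 3 CD133- arrays. In RNA from a sorted population, fewer cells that express the gene and less RNA per cell cannot be told apart.

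**Figure D1:**
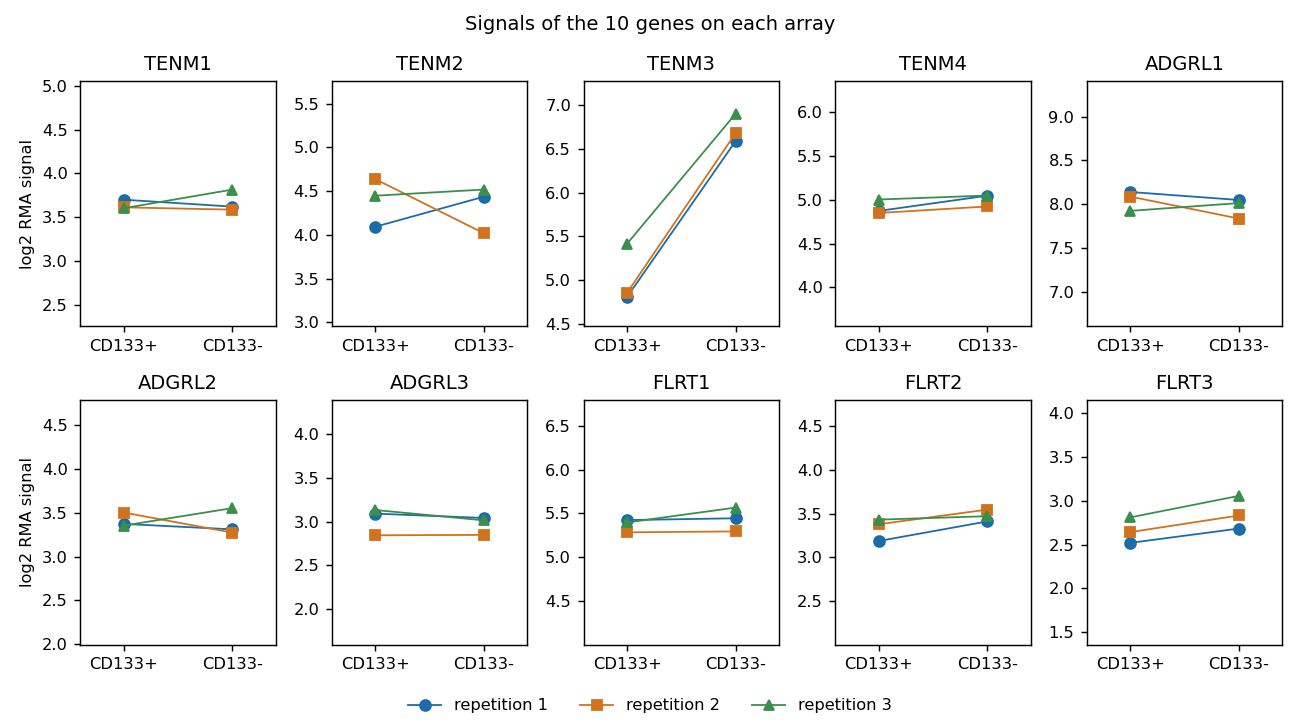
Log2 RMA signal of each of the 10 genes in CD133+ cells (left) and CD133- cells (right), with 1 line per repetition and the same span of the vertical axis in every panel. TENM3 lies between 4.81 and 5.42 on the CD133+ arrays and between 6.59 and 6.90 on the CD133- arrays, and the fractions overlap in the other 9 genes.

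The RefSeq promoter table lists 2 starts of TENM3 on build GRCh38.p14, both on the plus strand. They are shown because the upstream one lies inside the span of the antisense gene TENM3-AS1, for which the array has its own probe set, and the downstream one does not. Each sequence runs 5′ to 3′ from 250 bases before the start to 50 bases after it, and capitals mark CG dinucleotides.
TENM3 upstream start, chr4:182143713-182144012, plus strand: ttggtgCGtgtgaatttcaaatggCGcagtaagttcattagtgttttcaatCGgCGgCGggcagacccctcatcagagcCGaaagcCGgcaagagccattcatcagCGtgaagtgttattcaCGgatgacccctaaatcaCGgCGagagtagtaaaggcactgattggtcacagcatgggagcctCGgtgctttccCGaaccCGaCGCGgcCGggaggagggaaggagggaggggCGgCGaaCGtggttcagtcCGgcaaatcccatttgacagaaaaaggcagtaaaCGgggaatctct
TENM3 downstream start, chr4:182448766-182449065, plus strand: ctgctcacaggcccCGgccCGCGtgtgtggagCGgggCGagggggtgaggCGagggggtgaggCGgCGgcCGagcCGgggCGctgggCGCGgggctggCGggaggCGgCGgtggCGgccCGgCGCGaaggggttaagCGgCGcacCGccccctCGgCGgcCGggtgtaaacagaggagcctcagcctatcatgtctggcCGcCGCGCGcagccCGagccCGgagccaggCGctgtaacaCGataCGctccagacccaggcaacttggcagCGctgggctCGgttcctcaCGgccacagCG
The upstream window held 22 CG dinucleotides at 55.0% G and C, and the downstream window held 39 at 75.7%. The median over 35116 promoter windows of the same length was 14, and 96.0% of them held at least 1 CG. The downstream window had more CG dinucleotides than 91.3% of these windows and the upstream one more than 62.3%. For comparison, the 1 listed window of TENM4 held 30 and the 2 windows of TENM2 held 3 and 4. Of the 10 genes, 9 had a window in the table, 23 windows in all, with a median of 22. These counts describe sequence and say nothing of which start HCT116 cells use, which a whole-transcript probe set does not separate.

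TENM3-AS1, the antisense gene at the upstream start, was looked at after the TENM3 values had been seen. Its signal was 5.24, 5.31 and 5.62 in CD133+ cells and 5.40, 5.31 and 5.51 in CD133- cells. The fractions overlapped, and the mean difference was -0.02, with -0.16, -0.01 and 0.11 within repetitions 1, 2 and 3.

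The other 3 teneurins overlapped between the fractions. TENM4, teneurin-4, had signals of 4.87, 4.85 and 5.003 in CD133+ cells and 5.05, 4.92 and 5.05 in CD133- cells. The CD133+ array was the lower one in each repetition, by 0.17, 0.07 and 0.05, and the mean difference was -0.10. TENM1, the X-linked teneurin-1, had 3.70, 3.61 and 3.60 in CD133+ cells against 3.62, 3.59 and 3.81 in CD133- cells, a mean difference of -0.04 whose sign was not the same in all repetitions. TENM2, teneurin-2, was the least repeatable of the 10. It measured 4.09, 4.64 and 4.45 in CD133+ cells and 4.44, 4.02 and 4.52 in CD133- cells. The mean difference of 0.07 thus averaged -0.34 in repetition 1, 0.62 in repetition 2 and -0.07 in repetition 3, and the SD of 0.50 over these exceeded the mean. Without repetition 2 it was -0.21.

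The latrophilin genes, which encode receptors for teneurins and FLRT proteins, also overlapped between the fractions. ADGRL1, latrophilin-1, was the only one of the 10 genes whose signal lay above the array median on all 6 arrays. It had 8.14, 8.09 and 7.92 in CD133+ cells and 8.05, 7.83 and 8.01 in CD133- cells. Its mean difference of 0.08 was smaller than the SD of 0.17 over the repetitions, which gave 0.09, 0.25 and -0.09. ADGRL2, latrophilin-2, had 3.37, 3.50 and 3.35 in CD133+ cells and 3.31, 3.27 and 3.55 in CD133- cells, with a mean difference of 0.03. ADGRL3, latrophilin-3, had 3.09, 2.84 and 3.13 in CD133+ cells and 3.04, 2.85 and 3.01 in CD133- cells, with a mean difference of 0.05. Both lay below the array median on all 6 arrays, and the value table carries no detection call by which an expressed gene could be told from background.

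The FLRT genes, ligands of latrophilins and of UNC5 receptors, were each lower in the CD133+ array of all 3 repetitions, by small amounts. The same held for 18.4% of all genes. FLRT3 had signals of 2.52, 2.64 and 2.81 in CD133+ cells and 2.68, 2.83 and 3.06 in CD133- cells. The differences of -0.16, -0.19 and -0.25 were close to each other (mean -0.20, SD 0.04), although the fractions overlapped because the repetitions differed in both. FLRT2 had 3.19, 3.38 and 3.43 in CD133+ cells and 3.41, 3.55 and 3.47 in CD133- cells, a mean difference of -0.14. FLRT1 had 5.42, 5.28 and 5.40 in CD133+ cells and 5.44, 5.29 and 5.57 in CD133- cells, a mean difference of -0.07. Within repetitions 1, 2 and 3 it was -0.02, -0.01 and -0.17. All 3 FLRT genes lay below the array median on all 6 arrays. In the annotation the span of FLRT3 overlaps that of MACROD2, a gene looked at after the values had been seen. MACROD2 had 4.04, 4.36 and 4.47 in CD133+ cells and 4.57, 4.54 and 4.50 in CD133- cells. The mean difference was -0.25, with -0.54, -0.18 and -0.03 within repetitions 1, 2 and 3. Its fractions did not overlap, with CD133+ lower, as was the case for 4.52% of all genes. MACROD2 also lay below the array median on all 6 arrays.

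Of the 10 genes, 6 had a mean difference below 0 and 4 above it. The median difference was -0.05, against -0.01 over all 18404 genes, and the median absolute difference was 0.08, against 0.09 over all genes. Apart from TENM3 the differences ran between -0.20 and 0.08. Groups without overlap, with CD133+ lower, were found for 1 of the 10 genes and for 4.52% of all genes, and with CD133+ higher for 0 of the 10 and for 3.43% of all genes. The CD133+ array was the lower one in 3 of 3 repetitions for 5 of the 10 genes (TENM3, TENM4, FLRT1, FLRT2 and FLRT3) and for 18.4% of all genes, and the higher one in 3 of 3 for 0 of the 10 and for 17.7% of all genes. These counts come from the contrast by which the set was chosen and are given only as a description.

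**Figure D2:**
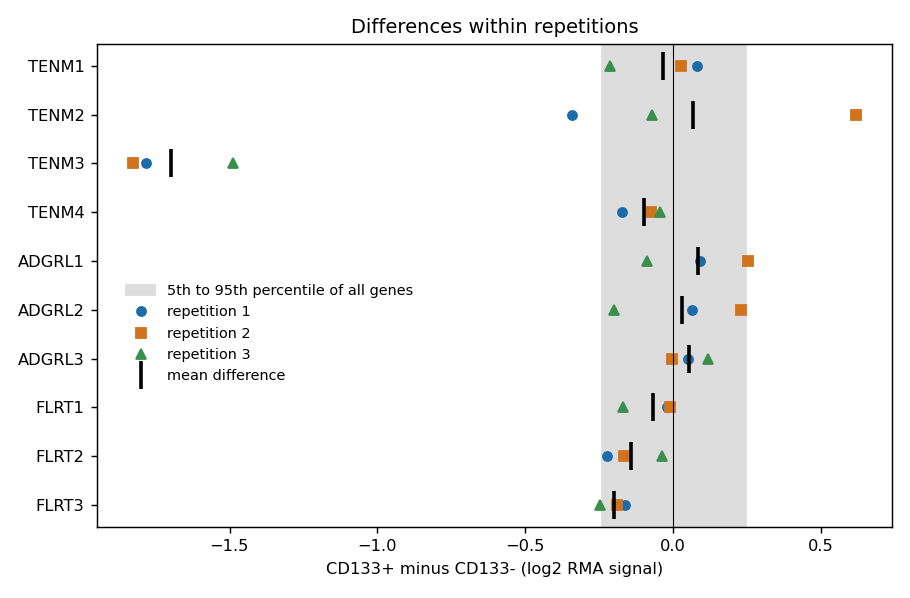
CD133+ minus CD133- difference in log2 RMA signal for each of the 10 genes, with 1 symbol per repetition, a black bar for the mean, and a grey band from the 5th to the 95th percentile of the mean difference over all 18404 genes (-0.24 to 0.25). The mean difference of TENM3, at -1.70, lies outside the band and those of the other 9 genes lie inside it.

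The spread between repetitions does not depend on the contrast between fractions, since each repetition holds 1 array of each, and it could be tested. Limma's moderated F test between repetitions was fitted together with the fraction over all probe sets. After Benjamini-Hochberg adjustment 0 of the 10 genes passed, beside 15.3% of all genes. A set of 10 genes is too small to tell a count of 0 from that share. At an unadjusted p under 0.05 there were 2 of the 10, TENM3 and FLRT3, against 38.4% of all genes. TENM3 averaged 5.70, 5.77 and 6.16 over both fractions in repetitions 1, 2 and 3 (limma adjusted p = 0.0761), so repetition 3 was the highest. FLRT3 averaged 2.60, 2.74 and 2.93 (limma adjusted p = 0.118). For the other 8 genes the adjusted p lay between 0.217 and 0.782. The median distance between the highest and the lowest repetition mean was 0.18 for the 10 genes and 0.28 over all genes. Of the 10 genes, 8 lay below the array median on all 6 arrays, and whether this bears on the distance was not tested.

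Partners of these proteins in the same pathways were examined as a list of 26 genes, of which 23 were analysed here. With fraction as the only term in limma, 0 of the 23 passed in either direction, at an unadjusted p under 0.05 there were also 0, and 0.00543% of all genes passed. With the repetition block 0 of the 23 passed and 0 had an unadjusted p under 0.05, while 0.196% of all genes passed as higher and 0.174% as lower. A list of 23 genes is too small to tell a count of 0 past the adjusted threshold from such shares. The list had 9 genes above 0 and 14 below, with a median difference of -0.06 and a range of -0.19 to 0.09. The 95% intervals of these differences came from the limma fit with the repetition block and were not adjusted for the number of genes. They lay between -0.42 and 0.32, so none reached the TENM3 difference of -1.70. That difference was the one by which the set was chosen, and only 3 of the 18404 genes had a more negative one. Falling short of it is therefore no result about the partners. Some partners, among them ADGRL4, CNTN6 and UNC5C, lay below the array median on all 6 arrays. With no detection call, an interval of such a gene cannot tell unchanged expression from a signal at background.

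The 4 partners with the smallest unadjusted p with fraction as the only term all had slightly negative differences; with the repetition block GPC3 and UNC5D took the places of CNTN6 and GNA13 among the 4 smallest. FGFR1, a fibroblast growth factor receptor that associates with FLRT proteins, had signals of 7.33, 7.19 and 7.19 in CD133+ cells and 7.42, 7.41 and 7.25 in CD133- cells (difference -0.12). CNTN6, a contactin that binds latrophilin-1, had 2.73, 2.66 and 2.67 in CD133+ cells against 2.77, 2.76 and 2.84 in CD133- cells (difference -0.11). GNA13, a G protein alpha subunit through which latrophilins can signal, had 8.55, 8.62 and 8.45 in CD133+ cells against 8.66, 8.64 and 8.65 in CD133- cells (difference -0.11). UNC5C, a netrin receptor of the family that FLRT proteins bind, had 3.68, 3.80 and 3.85 in CD133+ cells and 3.88, 3.78 and 4.02 in CD133- cells (difference -0.12). CNTN6 and GNA13 did not overlap between the fractions, with CD133+ lower, which makes 2 of the 23 partners beside the 4.52% of all genes given above. None of these passed, with limma adjusted p rounding to 1.00 with fraction as the only term and of 0.642 to 0.685 with the repetition block. GPC3, a glypican that binds UNC5 receptors and that had the most negative difference of the list, at -0.19, had the interval of -0.42 to 0.03. GPC3 and RND1, a small GTPase that binds FLRT3, were the 2 of 23 partners that differed between repetitions (limma adjusted p = 0.0255 and 0.0470), a test that 15.3% of all genes passed. Both GPC3 and RND1 lay below the array median on all 6 arrays.

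**Figure D3:**
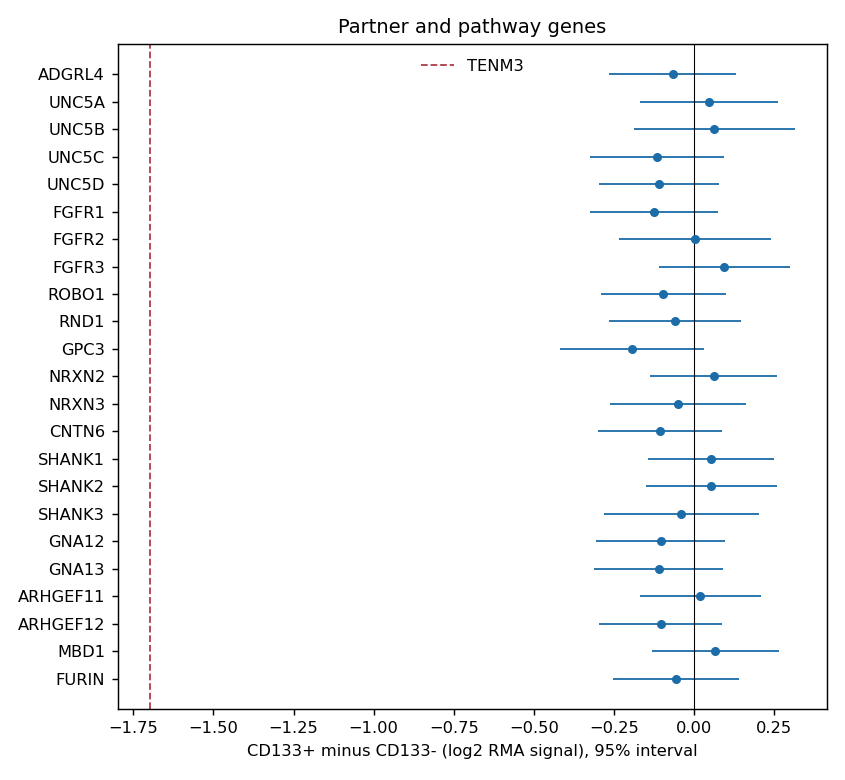
CD133+ minus CD133- difference in log2 RMA signal for the 23 measured partner genes, as points with 95% intervals from the limma fit with the repetition block, and the TENM3 difference as a dashed line. All points lie between -0.19 and 0.09, and every interval crosses 0.

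The genes whose pattern across the 6 arrays was most like that of TENM3 were ranked by the root mean square difference between log2 signals, each gene being centred on its own mean. The closest was MAP1B, which encodes a microtubule-binding protein, at 0.17. ANGPT2, which encodes a ligand of the TEK receptor, followed at 0.18, and PEG10, an imprinted gene derived from a retrotransposon, at 0.20. GLIS3, a zinc finger transcription factor gene, stood at 0.28 and RBM24, an RNA-binding protein gene, at 0.37, and the next gene, KLF12, at 0.39. The median over all other genes was 0.88.

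MAP1B had signals of 6.45, 6.57 and 6.999 in CD133+ cells and 7.90, 7.94 and 8.41 in CD133- cells. As in TENM3, the array of repetition 3 was the highest in each fraction. PEG10 had 6.83, 6.60 and 7.01 in CD133+ cells and 8.05, 8.22 and 8.79 in CD133- cells, again highest in repetition 3. ANGPT2 had 4.23, 3.74 and 4.51 in CD133+ cells and 5.65, 6.02 and 5.99 in CD133- cells. Its difference of -2.28 in repetition 2 was larger than those of -1.42 and -1.47 in repetitions 1 and 3. All 5 genes had CD133+ arrays below all CD133- arrays, a consequence of ranking on a profile that holds the contrast itself. Among the 10 genes of the set, FLRT3 came nearest to TENM3, at 0.76, with 761 other genes nearer, and the other 8 lay between 0.80 and 0.93. This order too rests on a profile that holds the contrast and is only a description.

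**Figure D4:**
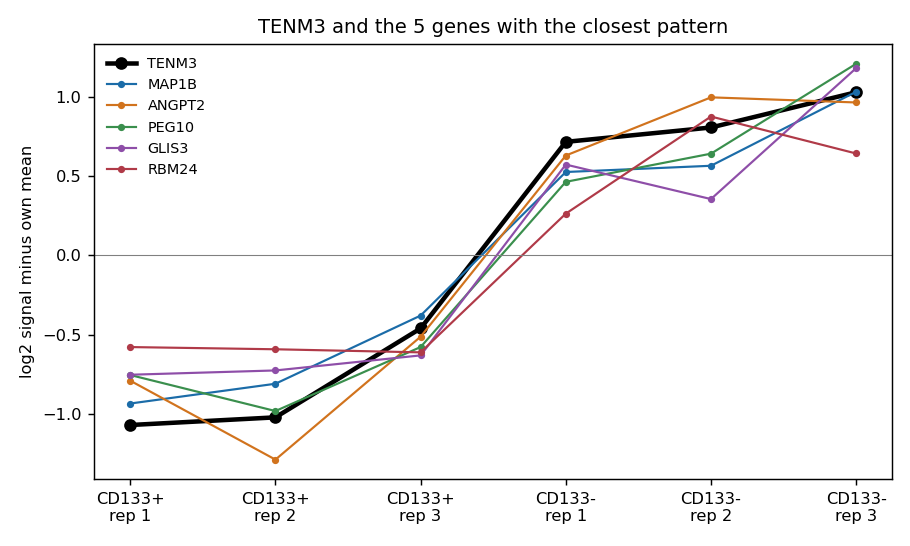
Log2 RMA signal minus each gene's own mean over the 6 arrays, for TENM3 (black) and the 5 genes with the smallest root mean square difference from it, with CD133+ arrays on the left and CD133- arrays on the right. The lines only join the points of a gene, and all 6 genes lie below 0 on every CD133+ array and above 0 on every CD133- array.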

How the data were processed

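The authors deposited log2 signals made with RMA (background correction, normalization between arrays and 1 summary value per probe set), per the labels' design text and the submitters' processing notes. Its version was not given in the sources used here. That the scale is log2 follows from the values (1.09 to 13.7). The design text names a U133 array, while the row identifiers match the annotation of a whole-transcript array, which was used. Of 32321 rows, a leading block of 4091 without annotation was left out, and 28230 probe sets were tested; 19158 carried 1 gene symbol and 1388 several, which named no gene. A gene took its probe set of highest mean. limma 3.58.1 in R 4.3.3 (lmFit, eBayes) was fitted to all 28230, with Benjamini-Hochberg adjustment at 0.05, and was checked on simulated data. For the comparison of the fractions the simulated data held no repetition effect, unlike the real arrays. The check thus cannot show how many changes the fit without the repetition block finds here. Deviations of same-numbered arrays from their fraction means correlated at 0.447 to 0.616, above 0.1 in all 3 pairs, so the numbers paired the arrays by the data, and fits with repetition as a block were also made. The number of arrays limits the precision.

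The named genes were the 10 members, PROM1, the partners that passed or else the 4 of smallest unadjusted p, and the 5 genes most like TENM3; TENM3-AS1, MACROD2, KLF12, GPC3, UNC5D and RND1 were added after their values were seen. Markers were named for the check of the cell type. The members and lists were chosen with earlier results of these data known. Alternatives were repeated quantile normalization, centring on array medians, the mean of probe sets, the repetition block, a filter on dim probe sets, all rows included, and leaving out arrays or repetitions. Promoter sequences are from RefSeq (GRCh38.p14), matched by symbol for 9 of the 10 genes.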

Additional observations from a re-analysis of the deposited data

How the results depend on the processing

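The TENM3 difference of -1.70 stayed negative under all 13 alternatives: it was -1.70 with the repetition block, which leaves a balanced difference as it is, and -1.70 and -1.69 after repeated quantile normalization and centring on array medians. It lay between -1.80 and -1.63 when a repetition was left out and between -1.89 and -1.59 when a single array was. TENM4, ADGRL1, FLRT1, FLRT2 and FLRT3 also kept their direction under all 13 alternatives, but their small differences moved. ADGRL1, at 0.08, became 0.0013 without repetition 2. Without single arrays FLRT1, at -0.07, reached -0.0016, FLRT2, at -0.14, reached -0.07 and FLRT3, at -0.20, reached -0.10. TENM1 and ADGRL3 kept it under 11, TENM2 under 10 and ADGRL2 under 9. The count of members that differed between repetitions was 0 with repeated quantile normalization, centring on array medians, the mean of probe sets, all rows included and each repetition left out. With the filter on dim probe sets it was 1 (TENM3) of the 2 members left, with fewer probe sets tested. TENM3 exceeded the array median only on its CD133- arrays, so it passed that filter through the fraction where it was high, and this call supports nothing. The partner list had 0 genes past the threshold under every alternative, the repetition block included. So few of all genes passed in the main fits that this count of 0 tells little. The mean of probe sets leaves the members as they are, since each has 1 probe set that carries its symbol alone. The value table has no detection call, so changes of genes near background cannot be judged.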
